A study of Mus musculus with 2 samples.

Results

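MHC class II high Lyve1-negative macrophages from pressure-loaded mouse hearts were described here in 2 single-cell RNA libraries. Cells were chosen by their counts of UMIs, the molecular barcodes that let each captured transcript be counted once. A member had at least 0.3% of its UMIs from C1qa, C1qb and C1qc, which encode complement component C1q, a product of tissue macrophages, and at least 2% from the MHC class II genes H2-Aa, H2-Ab1 and H2-Eb1. It had no UMI of Lyve1 or Timd4, which mark long-lived resident macrophages. It had at most 1 UMI of the cell cycle genes Mki67, Top2a and Birc5, at most 1 of Spp1 and Gpnmb, and at most 2 of Slc40a1 and Pla2g2d. Under 0.3% of its UMIs came from Ccl3, Ccl4, Cxcl2 and Tnf, and under 0.1% from the interferon-induced genes Ifit1, Ifit2, Ifit3, Rsad2 and Cxcl10. Cells with under 500 UMIs, under 200 genes or over 10% mitochondrial UMIs were left out. Of the 12407 others 2229 were members, 345 of 5415 in the LOY library and 1884 of 6992 in the control library. Measured values chose these cells, so the levels of the genes just named follow from the choice and are given as a description.

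The LOY group had received bone marrow with loss of the Y chromosome (genotype LOY) and the control group bone marrow of the genotype control, and both carried a bone marrow transplant (BMT). Both groups had undergone TAC, transverse aortic constriction, which raises the pressure against which the left ventricle pumps. Viable CD45+ RFP+ leukocytes were sorted from this ventricle, RFP being the label of the transplanted marrow, so macrophages that remained from the host lie outside the gate. Each group was 1 library of cells from 3 samples pooled after the sort, and the labels used here give no strain, age, sex, time after surgery or way in which the Y chromosome was lost.

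With 1 library per group no test was possible, no difference has a replicate check. The 95% intervals below take in counting error alone. The LOY library held 5475 barcodes with 18710715 UMIs and the control library 7276 barcodes with 42640861 UMIs. Members had a median of 2430 UMIs and 977 genes in the LOY library, against 4953 UMIs and 1717 genes in the control library. Mitochondrial genes gave a median of 1.88% of the UMIs of LOY members and 2.98% of those of control members. Levels are CPM, the counts per 1000000 UMIs summed over the members of a library, and rest on 868080 UMIs in LOY and 10293343 UMIs in control members. The interval of a LOY value is therefore wider than that of a control value at the same level. Of 12720 different barcodes, 31 occurred in both libraries, among them those of 14 LOY members and 1 control member. For 13 of the 14, the LOY cell had 504 to 796 UMIs and the control cell with the same barcode 22116 to 34713 UMIs, so that the LOY count was 2.00% to 2.33% of the control count. In these 13 cells 98.4% to 100% of the LOY UMIs were in genes detected in that control cell. The fourteenth had 2672 UMIs in the LOY and 3008 UMIs in the control library, with 57.3% in shared genes. Without barcodes found in both libraries 331 LOY members remained.

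MHC class II molecules are dimers of an alpha and a beta chain that carry peptides of ingested proteins to the cell surface, where CD4+ T cells read them. The invariant chain Cd74 guides the dimers to the endosome, H2-DM exchanges its remnant for a peptide, and the coactivator Ciita switches the whole group of genes on by joining factors at the X and Y boxes of their promoters. In the mouse heart, macrophages are usually sorted into Lyve1+ resident cells, cells with high MHC class II and low Lyve1, and cells that also carry Ccr2, a chemokine receptor of recruited monocytes.

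The promoters of H2-Aa and H2-Eb1 are shown because these genes set the threshold of 2% and carry the boxes that Ciita works through. The sequences are from RefSeq (GRCm38.p6), from 250 bases before to 50 bases after each gene's start, with the capitals marking GCAACT of the X box and CTGATTGG of the Y box. H2-Aa lies on the minus strand at chr17:34287774-34288073 and H2-Eb1 on the plus strand at chr17:34305617-34305916.
H2-Aa: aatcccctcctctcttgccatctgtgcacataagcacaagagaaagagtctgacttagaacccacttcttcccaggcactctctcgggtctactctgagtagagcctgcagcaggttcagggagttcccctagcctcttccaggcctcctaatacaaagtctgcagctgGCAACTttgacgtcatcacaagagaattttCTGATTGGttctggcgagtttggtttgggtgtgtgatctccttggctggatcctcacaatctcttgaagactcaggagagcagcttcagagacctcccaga
H2-Eb1: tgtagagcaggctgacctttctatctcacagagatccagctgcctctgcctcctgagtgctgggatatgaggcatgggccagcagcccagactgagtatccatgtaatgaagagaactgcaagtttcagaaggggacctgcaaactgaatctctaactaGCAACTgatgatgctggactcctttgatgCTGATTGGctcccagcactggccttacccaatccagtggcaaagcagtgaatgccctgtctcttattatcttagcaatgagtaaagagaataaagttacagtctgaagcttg
In H2-Aa the letters start at bases 170 and 200 of the window with 24 bases between them, and in H2-Eb1 at bases 160 and 189 with 23 bases between them. Both motifs were searched on both strands of the 32851 promoters of the table. GCAACT was found in 10.9% of them and CTGATTGG in 4.10%, and the motifs do not overlap in these promoters. The order GCAACT then CTGATTGG with at most 40 bases between them on the same strand was found in 10 promoters (0.0304%), among them those of H2-Aa, H2-Eb1 and H2-Eb2. The letters were read from the promoters of H2-Aa and H2-Eb1, so their presence there is no finding. No match says only that these letters are not in a window. The windows of H2-DMa, H2-DMb1, Clec4b1 and Ccr2 held neither motif, that of Lilra5 held GCAACT, and H2-Ab1 and Ciita were not in the table.

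The listed markers of this population are Cd74, Clec4b1, Lilra5 and, from the rule itself, H2-Aa and H2-Eb1. Cd74 (chromosome 18) had 34042 CPM in LOY and 32342 CPM in control members. H2-Eb1 (chromosome 17) had 9951 CPM in LOY and 15925 CPM in control members, and H2-Aa (chromosome 17) 8972 and 14722 CPM in the same order. Clec4b1, a C-type lectin gene on chromosome 6, had 261 and 438 CPM, and Lilra5, an immunoglobulin-like receptor gene on chromosome 7, 111 and 187 CPM. Lilra5 was also carried by MHC II low Lyve1-negative macrophages (the same rule with under 2%), with 70.5 CPM in LOY and 143 CPM in control cells. With 10 CPM added to each level, the scale of all 1.5-fold counts below, Lilra5 was not over 1.5-fold higher in members of either library. All 14 genes of the macrophage list were measured, that is at 10 CPM or more in LOY or control members, among them Adgre1 (190.1 and 398 CPM), Fcgr1 (448 and 299.6 CPM) and Csf1r (813 and 556 CPM). Of the genes that define dendritic cells, the other cell type rich in MHC class II, Flt3, Zbtb46 and Cd209a were near 0. Flt3 had 1.15 and 0.291 CPM, Zbtb46 1.15 and 1.17 CPM, and Cd209a 0 and 2.82 CPM in LOY and control members. Over the 16 dendritic cell markers the sum was 255 CPM in LOY members, with Cd209a and Itgae at 0, and 209 CPM in control members, with none at 0. That sum rests mainly on Batf3 (95.6 and 116 CPM) and Itgax (87.5 and 41.3 CPM), which macrophages also express. Of the 16 markers 5 were measured, with 2 over 1.5-fold higher in LOY than in control members and 0 lower. Among all measured genes 6.44% were higher and 12.8% lower. The highest was Ccl22, whose log2 ratio with 10 CPM added to each level was 1.65, and -0.047 at a threshold of 4% MHC class II.

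Markers of other cell types were low and were not equal in the libraries. The 8 B cell markers summed to 49.5 CPM in LOY members and to 96.4 CPM in control members. The 6 neutrophil markers summed to 26.5 CPM in LOY members, with S100a8, S100a9, Retnlg and Cxcr2 at 0, and to 173 CPM in control members. The 8 T cell markers summed to 13.8 CPM in LOY members, with Cd3e, Cd3g, Bcl11b and Cd28 at 0, and to 44.2 CPM in control members. The 8 cardiomyocyte markers summed to 71.4 and 143 CPM with none at 0 in LOY or control members. Markers of NK cells had 13.8 and 25.9 CPM, of fibroblasts 141 and 153 CPM, of endothelial cells 18.4 and 23.1 CPM, of erythroid cells 0 and 4.08 CPM and of platelets 1.15 and 2.72 CPM. Over all cells kept, neutrophil markers had 891 CPM in the LOY and 1656 CPM in the control library, and B cell markers 152 and 432 CPM. The rule has no doublet step. Scrublet, which scores barcodes that may hold more than 1 cell, marked 0 LOY barcodes and 88 control barcodes (1.26%) at its automatic threshold, and these marks were not used. Removing the highest scores at 0.8% per 1000 barcodes took out 3 LOY members (0.870%) and 116 control members (6.16%).

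The Y-linked genes check the labels. Ddx3y, Eif2s3y, Kdm5d and Uty together stood at 8.06 CPM in LOY members (7 UMIs, exact Poisson interval 3.24 to 16.6) and at 105.8 CPM in control members (1089 UMIs, 99.6 to 112). That is 7.62% of the level in control members (3.06% to 15.8%), or 6.61% without barcodes found in both libraries, which held 1 of the 7 UMIs. Kdm5d, a histone demethylase, and Uty had 0 UMIs in LOY members, against 125 and 107 UMIs in control members. With every cell thinned to 1000 UMIs, 0.619% of LOY members (0.0751% to 2.22%) and 9.29% of control members (8.02% to 10.7%) had a Y-linked UMI. The added RFP sequence had 0 UMIs in LOY and control members. The X-linked partners were nearer to each other, with Ddx3x at 72.6 CPM in LOY and 106 CPM in control members and Kdm6a at 16.1 and 19.2 CPM.

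Members were a smaller share of the LOY library. They made up 6.37% of LOY cells (exact Clopper-Pearson interval 5.74% to 7.05%) and 26.9% of control cells (25.9% to 28.0%). Without barcodes found in both libraries the LOY share was 6.15%. Among Lyve1-negative macrophages that passed all other steps of the rule, 345 of 1845 LOY cells (18.7%, 16.9% to 20.6%) and 1884 of 2251 control cells (83.7%, 82.1% to 85.2%) reached 2% MHC class II UMIs. Among all cells with at least 0.3% C1q UMIs, 517 of 4285 LOY cells (12.1%) and 3237 of 4973 control cells (65.1%) did so. In these C1q-high cells the median MHC class II share was 0.0565% in the LOY and 3.04% in the control library, and 1588 LOY cells (37.1%) against 114 control cells (2.29%) had no UMI of the 3 genes. The plot of this share has most LOY cells next to 0 and most control cells above the threshold, with cells at every level between. The threshold therefore cuts a range and not a separate group, and 102 LOY members (29.6%) and 102 control members (5.41%) lay between 2% and 2.5%. Sorting, the limit of 500 UMIs per cell and unequal depth can bear on such shares, and the part of each was not tested. With a minimum of 1000 UMIs the shares were 6.43% in the LOY and 27.0% in the control library. With the rule applied to cells thinned to 1000 UMIs they were 6.18% and 28.99%. With only cells of 2000 to 6000 UMIs in both libraries the shares were 6.18% and 36.0%.

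**Figure D1:**
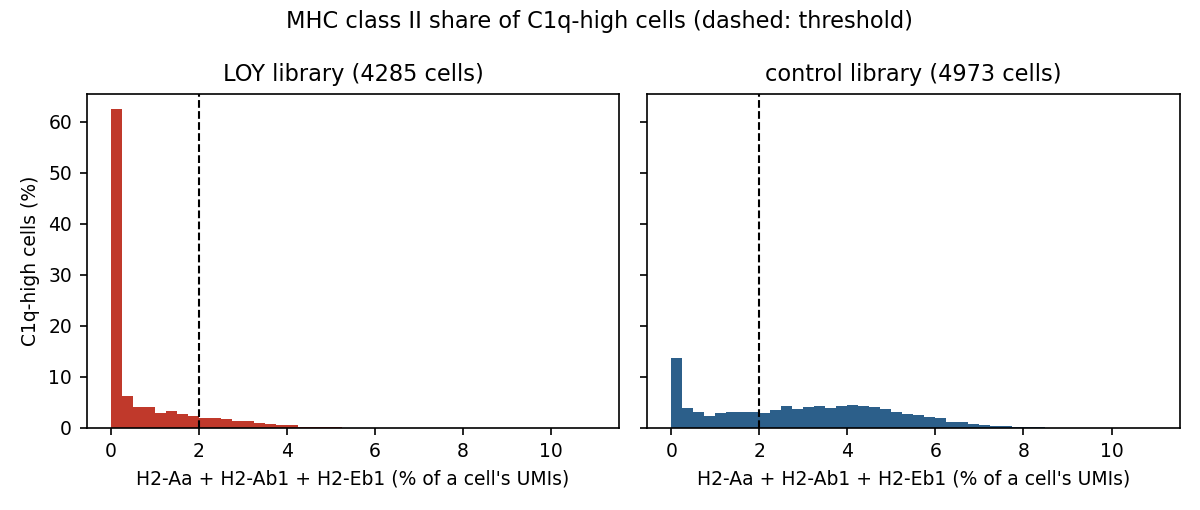
Share of H2-Aa, H2-Ab1 and H2-Eb1 in the UMIs of each C1q-high cell (x axis, %), as a percent of the C1q-high cells of the LOY library (left, 4285 cells) and the control library (right, 4973 cells). To the right of the dashed threshold at 2% lie 12.1% of the LOY cells and 65.1% of the control cells.

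Of the C1q-high cells past 2%, the step on Lyve1 or Timd4 left out 3.09% in the LOY and 16.9% in the control library. The interferon step left out 16.6% and 10.5%, the chemokine step 8.70% and 13%, the step on Spp1 or Gpnmb 5.80% and 2.19%, the cell cycle step 4.06% and 3.24%, and the step on Slc40a1 or Pla2g2d 0.193% and 5.68% in the same order. A cell can be left out by more than 1 step. The rule thus left aside unlike shares of the MHC class II high macrophages of each library.

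Within members the MHC class II level still differed. H2-Aa, H2-Ab1 and H2-Eb1 together had 29951 CPM in LOY members (29588 to 30317) and 43917 CPM in control members (43790 to 44046), so LOY members stood at 68.2% of control. The highest share in a cell was 6.79% in LOY and 10.6% in control members. The rule fixes the lower end of this range and not the upper. The same sum in LOY was 40% of control in MHC II low Lyve1-negative macrophages, with 3704 CPM in LOY and 9254 CPM in control cells. It was 10.03% of control in Lyve1-positive macrophages (the same exclusions, 2 or more UMIs of Lyve1 and Timd4), with 1488 and 14838 CPM. In MHC II high cells low in C1q (no B cell marker UMI, C1q under 0.3%) it was 86.6% of control, with 29168 and 33687 CPM. C1q itself had 24861 CPM in LOY and 22330 CPM in control members. Just inside the threshold, at 2% to 2.5%, Cd74 had 29781 CPM in 102 LOY and 19358 CPM in 102 control members. Just outside, at 1.5% to 2%, it had 22982 CPM in 110 LOY and 15547 CPM in 85 control cells. These levels exclude the 3 class II genes from the total. Clec4b1 had 174 CPM inside and 199 CPM outside in LOY cells, and 343 CPM inside and 256 CPM outside in control cells. Folr2 had 77.8 CPM inside and 83.0 CPM outside in LOY cells, and 285 and 577 CPM in control cells.

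Members were compared with MHC II low Lyve1-negative macrophages, 1500 in the LOY and 367 in the control library, to show what moves with the class II genes that the rule used. Genes outside the rule were ranked, at 50 CPM and 50 UMIs or more, by the smaller of the LOY and control log2((member CPM + 10)/(other CPM + 10)), a scale that understates differences of low genes. Beside the class II genes, the partners of presentation were highest. Cd74 had 34042 CPM in LOY members and 5843 CPM in LOY MHC II low cells, and 32342 and 8982 CPM in the control library. Its log2 ratio was 2.54 in the LOY and 1.85 in the control library. H2-DMb1, a chain of the peptide exchanger, had 821 CPM in LOY members and 202 CPM in LOY MHC II low cells, and 852 and 287 CPM in the control library. H2-DMa, its partner chain, had log2 ratios of 1.55 and 1.26. Ciita had 146 CPM in LOY members and 27.2 CPM in LOY MHC II low cells, and 157 and 57.8 CPM in the control library. Ciita belongs to a list of class II transcription factors. Of 11 measured members of that list, only Ciita was over 1.5-fold higher and none was over 1.5-fold lower, in the LOY and in the control library, with medians of -0.09 and -0.06. Among all measured genes 1.9% and 0.702% were higher, and 7.92% and 4.22% lower. At those shares few of 11 genes would be lower, so the absence of a lower gene says little.

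Further genes with high ratios were few. Clec4b1 had 261 CPM in LOY members and 78.5 CPM in LOY MHC II low cells, and 438 and 188 CPM in the control library. Il1b, the cytokine interleukin-1 beta, had 479 CPM in LOY members and 185 CPM in LOY MHC II low cells, and 680 and 319 CPM in the control library. Ccr2 had 535 and 295 CPM in the LOY library and 539 and 302 CPM in the control library. Dusp2 (a phosphatase of MAP kinases), Rnase6 (a ribonuclease), Plbd1, Sowahc and Cyp4f18 completed the 12 highest, with log2 ratios from 0.79 to 1.36 in the LOY and from 0.91 to 1.12 in the control library. Over 1.5-fold higher in members were 1.9% of 7527 measured genes in the LOY and 0.702% of 7839 in the control library, and over 1.5-fold lower 7.92% and 4.22%. The median log2 ratio of all measured genes was -0.13 and -0.17.

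Genes of Lyve1+ resident macrophages were lower in members although the 2 populations have no Lyve1 or Timd4 UMI by the rule. Of 22 listed resident genes outside the rule, 13 of 18 measured were over 1.5-fold lower in LOY members and 15 of 19 in control members. Among all measured genes 7.92% and 4.22% were lower. The median log2 ratios of the list were -1.06 and -1.0. Folr2, the folate receptor beta, had 46.1 CPM in LOY members and 242 CPM in LOY MHC II low cells, and 168 and 638 CPM in the control library. Cbr2, a carbonyl reductase, had log2 ratios of -2.14 and -1.75, F13a1, a coagulation factor XIII subunit, -1.99 and -1.57, and the scavenger receptor Stab1 -2.12 and -1.57. The chemokine genes Ccl8 (93.3 against 511 CPM in LOY, 141 against 575 CPM in control) and Ccl7 (21.9 against 122 CPM in LOY, 34.2 against 141 CPM in control) stood with them. Ctsd, a lysosomal protease, had 608 CPM in LOY members and 2543 CPM in LOY MHC II low cells, and 351 and 882 CPM in the control library. Gas6, which bridges dying cells to their receptors, Ltc4s, which makes leukotriene C4, Plec, Rnase4 and Serpinb6a made up the rest of the 12 lowest. Mgl2, a lectin often listed with resident cells, was the other way, with log2 ratios of 1.14 and 0.44.

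**Figure D2:**
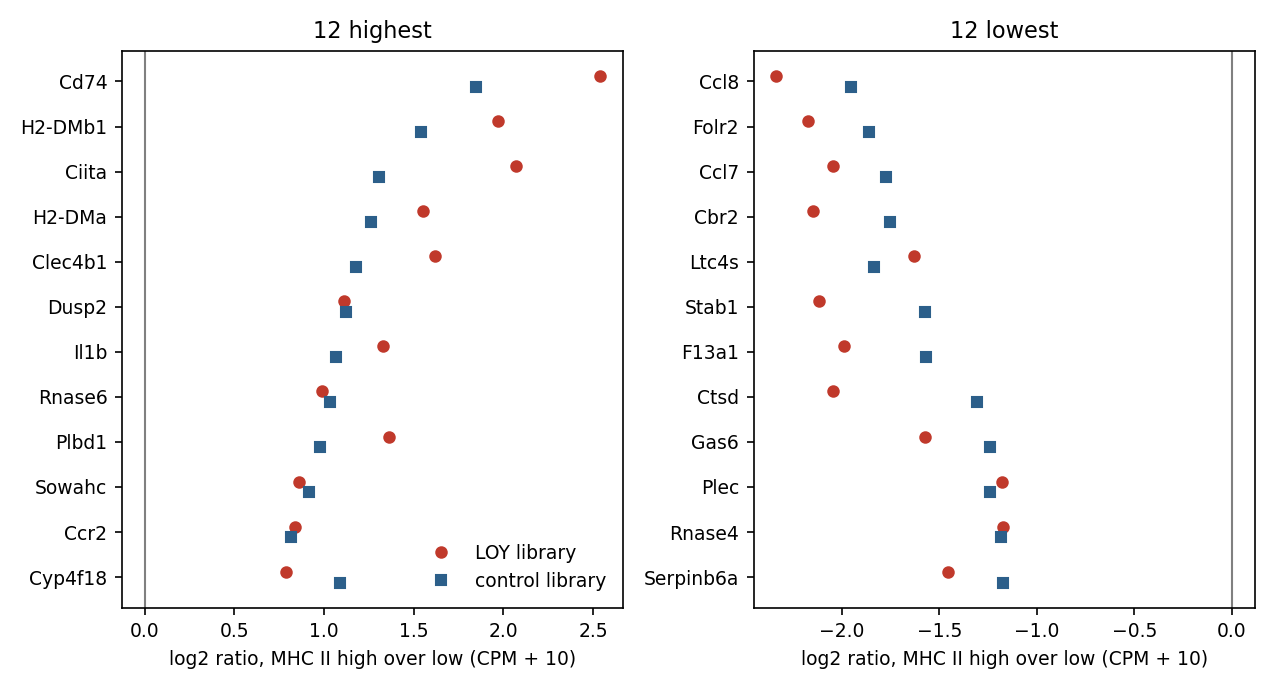
Log2 ratio of members over MHC II low Lyve1-negative macrophages (x axis, CPM + 10) for the 12 highest (left) and 12 lowest (right) genes, with the LOY library as circles and the control library as squares. Cd74 is highest at 2.54 in LOY and 1.85 in control, and Ccl8 lowest at -2.33 in LOY and -1.95 in control.

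Against Lyve1-positive macrophages, 338 in the LOY and 768 in the control library, members were set apart by Il1b with 479 against 35.6 CPM in the LOY library and 680 against 162 CPM in the control library. Rgs1, a regulator of G-protein signals, had 358 against 78.0 CPM in LOY and 413 against 129 CPM in control. Cd72, an inhibitory receptor, had 433 against 143 CPM in LOY and 466 against 149.8 CPM in control. Ramp1 (part of the CGRP receptor), Sh2d1b1, the elastase Mmp12, Gngt2 and Bcl2a1a, of a family of near-identical genes, were also among the 8 highest. Folr2, F13a1, Ccl8, Ltc4s, Vsig4, Ednrb, Fcna and Cd209f were the 8 lowest. F13a1 had 79.5 against 2149 CPM in LOY and 204 against 1759 CPM in control. Lyve1 chose the Lyve1-positive cells, so genes that go with it had to differ. Over 1.5-fold higher in members were 6.26% of measured genes in the LOY and 2.53% in the control library, and over 1.5-fold lower 20.4% and 6.48%.

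Against the MHC II high cells low in C1q, 153 in the LOY and 159 in the control library, macrophage genes were high in members. Pf4, a platelet-type chemokine that cardiac macrophages make, had 756 against 36.2 CPM in LOY and 1131 against 12 CPM in control. Selenop, a selenium carrier, had 715 against 88.0 CPM in LOY and 1642 against 58.8 CPM in control, and Trem2, a lipid-sensing receptor, 668 against 75.9 CPM in LOY and 400.5 against 31.2 CPM in control. Igf1, Cd63, Timp2, Ms4a7 and Pmp22 completed the 8 highest. The 8 lowest were Xcr1 and Cd24a, which mark cross-presenting dendritic cells, Ifi205, Jaml, Ccl17, H2-Oa, Sept3 and Hist1h1b. Xcr1 had 1.15 against 200.2 CPM in LOY and 0.680 against 218 CPM in control. All 14 macrophage genes were over 1.5-fold higher in members in the LOY and in the control library, where 15.4% and 14.4% of all measured genes were, and 15.0% and 13.5% were lower. C1q, a macrophage product, split these populations, so genes that go with it had to differ.

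Ccr2 and Cx3cr1, the receptors by which macrophages of the heart are often divided, gave shares of members whose intervals overlapped between the LOY and control libraries. Ccr2 had 535 CPM in LOY members (487 to 585) and 539 CPM in control members (525 to 554), and Cx3cr1, the fractalkine receptor, 555 CPM (507 to 607) and 500.03 CPM (486 to 514). After thinning to 1000 UMIs, which left 323 LOY and 1872 control members and left out 22 and 12 shallower ones, 33.1% of LOY members (28.0% to 38.6%) and 33.4% of control members (31.3% to 35.6%) had a Ccr2 UMI. Unthinned, the shares were 53.0% and 62.4%. Both receptors were seen in 11.8% of LOY and 13.2% of control members, Ccr2 alone in 21.4% and 20.2%, Cx3cr1 alone in 24.5% and 22.7%, and neither in 42.4% and 43.9%. B cells, which should lack both, had a Ccr2 UMI in 2.82% of 71 LOY cells and 1.13% of 798 control cells at the same depth, with medians of 896.5 and 2053 UMIs before thinning. Among MHC II low cells the thinned Ccr2 share was 22.0% in the LOY and 16.3% in the control library, and among Lyve1-positive cells 5.34% and 12.1%.

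Other genes were seen in unlike shares of members. At 1000 UMIs, Mrc1, the mannose receptor of resident macrophages, was found in 22.9% of LOY members (18.4% to 27.9%) and 37.1% of control members (34.9% to 39.3%), with unthinned shares of 40.3% and 78.8%. Clec4b1 was found in 22.0% and 32.6% (38.3% and 76.2% unthinned), Folr2 in 5.26% and 11.4% (6.96% and 27.4% unthinned), and Lilra5 in 10.5% and 17.7% (19.7% and 55.6% unthinned). In MHC II low cells the thinned Lilra5 shares were 7.04% in LOY and 14.3% in control, with intervals that overlap those of the members of the same library. Of 71 thinned LOY B cells none had a UMI of Mrc1, Clec4b1, Folr2 or Lilra5, which allows a share of up to 4.23%, and in 798 control B cells the 4 shares ran from 0.125% to 1.003%. Ly6c2, a surface protein of inflammatory monocytes, was found in 10.2% of LOY members (7.14% to 14.0%), against 0.267% of control members (0.0868% to 0.622%). The Ly6c2 share in B cells was 1.41% in the LOY library (0.0357% to 7.60%, 1 of 71 cells) and 1.25% in the control library (0.603% to 2.29%). The control members were thus at or below the background, while the intervals of LOY members and LOY B cells overlapped. The dendritic cell gene Flt3 was found in 0 of 323 LOY members, which allows up to 0.929%, and in 0.0534% of control members.

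Levels moved along the MHC class II share within members. Cells were split at 4% and 6%, giving 295, 48 and 2 LOY members and 702, 929 and 253 control members from low to high, with the 3 class II genes left out of the total. The uppermost LOY bin has too few cells for a level and is not described. Cd74 had 33748 and 44797 CPM in the lower LOY bins, and 26071, 37014 and 49511 CPM in the control bins. H2-DMb1 had 827 and 979 CPM in LOY, and 676, 1009 and 1193 CPM in control. Il1b had 437 and 919 CPM in LOY, and 563, 777 and 985 CPM in control, and Clec4b1 261 and 340 CPM in LOY, and 378, 497 and 592 CPM in control. Folr2, F13a1 and Mrc1, genes of resident macrophages, ran the other way. Folr2 had 54.1 CPM and 0 UMIs in LOY, and 267, 127 and 46.8 CPM in control. F13a1 had 87.9 and 39.97 CPM in LOY, and 323, 154 and 61.2 CPM in control, and Mrc1 329.9 and 169.9 CPM in LOY, and 659, 478 and 369.9 CPM in control. For H2-DMb1, Clec4b1 and F13a1 the intervals of the lower LOY bins overlapped, so their course in LOY is not resolved. The F13a1 level in LOY members at 4% to 6% rests on 4 UMIs. The resident genes Stab1 and Gas6 were lower in each higher bin in control and not in LOY. Stab1 had 105 and 119.9 CPM in LOY, and 147, 88.9 and 53.5 CPM in control, and Gas6 31.1 and 60.0 CPM in LOY, and 179, 87.4 and 44.9 CPM in control, with overlapping intervals between the LOY bins. Ctsd was lower in each higher control bin, with 437, 339 and 226 CPM, and its LOY intervals overlapped at 637 CPM (581 to 697) and 550 CPM (414 to 715). Ccr2 had 557 and 519.6 CPM in LOY, and 519, 604 and 555 CPM in control, without a course in one direction. Ciita had 158 CPM (131 to 190) and 99.9 CPM (47.9 to 184) in LOY, where the intervals overlap, and 136, 186 and 179.7 CPM in control.

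**Figure D3:**
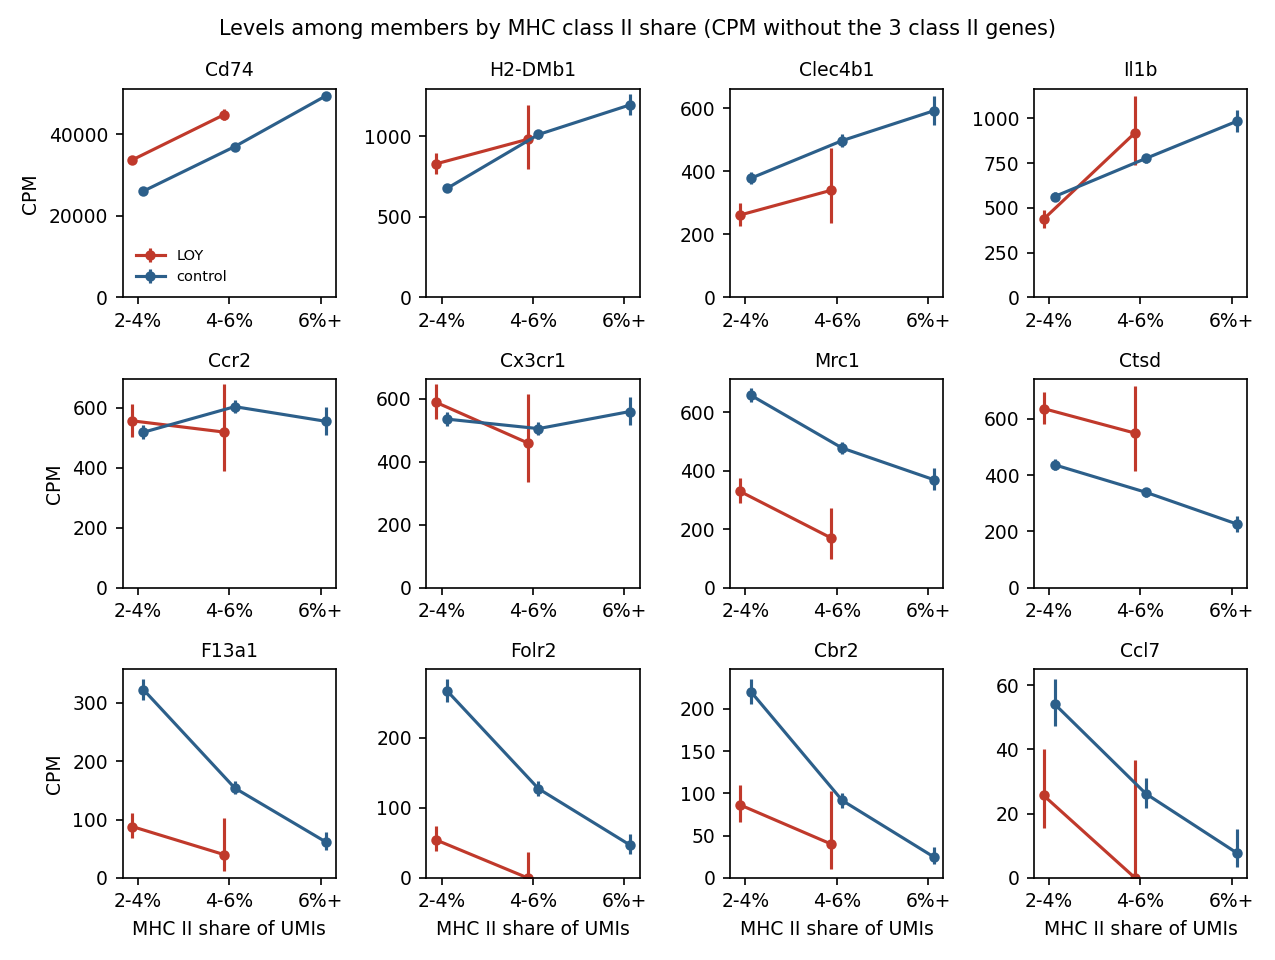
CPM of 12 genes (y axis, total without the 3 class II genes) in members split by their MHC class II share of UMIs (x axis), with the LOY library in red and the control library in blue, and bars for exact Poisson intervals. Cd74 is at 49511 CPM in the control bin at 6% or more and Folr2 at 46.8 CPM there, and the LOY bin of 2 cells is not drawn.

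Between LOY and control members, 7622 genes were measured at 10 CPM or more in either, with a median log2((LOY CPM + 10)/(control CPM + 10)) of -0.10. On this scale 491 (6.44%) passed 1.5-fold upward in LOY members and 978 (12.8%) downward. Relative to that median, 722 were higher and 652 lower. Without barcodes found in both libraries the counts were 493 and 996. A gene under 10 CPM in LOY or control members entered only through the other, as Ly6c2, Plac8 and Chil3 did through LOY and H2-Ob, Ccl24 and Cxcl1 through control. These are sizes and not tests.

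Ly6c2, which shares sequence with Ly6c1 so that their UMIs may be mixed, had the highest ratio. It had 332 UMIs, 382 CPM (342 to 426), in LOY members and 67 UMIs, 6.51 CPM (5.04 to 8.27), in control members, 58.8-fold higher (45.1 to 77.6). The transcript came from part of the cells, with 48 of 345 LOY members and 19 of 1884 control members holding at least 1 UMI, and 10 LOY members giving 56.0% of the LOY UMIs. In MHC II low cells it had 158 CPM in the LOY and 41.6 CPM in the control library. Plac8, also high in monocytes, had 69.1 CPM in LOY and 9.13 CPM in control members, 7.57-fold higher (5.38 to 10.6). It was seen in 34 LOY and 36 control members, and 10 cells held 51.7% of its UMIs in LOY and 68.1% in control. It had 47.0 and 70.8 CPM in MHC II low cells. Napsa, a lysosomal aspartic protease, had 157 and 32.2 CPM in members, 4.87-fold higher (3.96 to 5.97), against 30.9 and 27.8 CPM in MHC II low and 11.9 and 10.7 CPM in Lyve1-positive cells. Ccl5, a chemokine for T cells and monocytes, had 350.2 and 64.3 CPM, 5.45-fold higher (4.74 to 6.25), yet 10 LOY members held 87.8% and 10 control members 61.3% of its UMIs. Its log2 ratio was 2.28, 4.16 with a threshold of 4% MHC class II and 1.25 among members with 2.5% to 4%.

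Of the other genes at the top, Apoc2 had 50.6% of its LOY UMIs in 10 members, Tmem119 39.7% and Pmepa1 39.2%, and the rest had from 10.6% (Cd52) to 26.6% (Abi3). Ly6a, the surface antigen Sca-1, had 874 CPM (813 to 939) in LOY and 129 CPM (122 to 136) in control members, and was also higher in LOY MHC II low cells (676 against 227 CPM) and Lyve1-positive cells (538 against 233 CPM). Ly6a was seen in 43.2% of LOY and 20.2% of control members without thinning. Cd52, a small surface glycoprotein, had 3954 and 1472 CPM, and Ly6e 2216 and 849 CPM. Lgals1, galectin-1, had 1211 and 455 CPM, and Atox1, a copper chaperone, 1263 and 429 CPM. Uqcr10 (344 and 122 CPM) and Ndufa11 (233 and 82.5 CPM), of the respiratory chain, stood beside them, while Sdhd of the same chain was among the 15 lowest. No list of the chain as a whole was used. Pmepa1, a target of TGF-beta signals, had 165 and 46.7 CPM, 3.53-fold higher (2.90 to 4.26). Tmem119 (78.3 and 17.8 CPM) and Abi3 (91.0 and 27.0 CPM), best known from microglia, and the apolipoprotein gene Apoc2 (103 and 15.0 CPM) completed the 15 highest. The log2 ratio of Apoc2 was 2.17, and 0.67 at a threshold of 4%. A pseudocount of 50 CPM, in place of 10, gave lower ratios for low genes, with 2.94 for Ly6c2 against 4.57. Of these 15 genes, 13 were also higher in LOY than in control MHC II low cells by over 1.5-fold, the exceptions being Plac8 and Napsa. In that comparison 4.79% of all measured genes were higher by over 1.5-fold.

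The lowest ratios held regulators of early response. Btg2, an antiproliferative early response gene, had 213 CPM (184 to 246) in LOY and 1236 CPM (1215 to 1258) in control members, and was seen in 34.5% of LOY and 91.2% of control members without thinning. Klf2, a quiescence factor, had 174 and 851 CPM, and Cebpb, a transcription factor of inflammation, 97.9 and 587 CPM. The actin-binding profilin gene Pfn1 had 357 CPM (318 to 399) in LOY and 1440 CPM (1416 to 1463) in control members. H2-M3, an MHC class Ib gene that presents formylated peptides, had 25.3 and 146 CPM, and Cd48, a ligand of the receptor 2B4, 84.1 and 300.4 CPM. All 6 were over 1.5-fold lower in LOY than in control cells among MHC II low and Lyve1-positive macrophages too. In the same order 12.9% and 8.92% of all measured genes were lower there. The 6 are a part of the 15 lowest genes and no count is given for the rest. They are therefore not a full count to set against these shares. Sdhd, a subunit of succinate dehydrogenase, had 11.5 and 83.8 CPM, Hes1, a Notch target, 15.0 and 72.1 CPM, and Cmtm6 20.7 and 89.9 CPM. Sap18, which has a near-identical copy, had 11.5 and 58.1 CPM. Ccl2, the ligand of Ccr2, had 30.0 and 113 CPM, Folr2 46.1 and 168 CPM, and C4b, whose near-identical copy is C4a, 35.7 and 127 CPM. At a threshold of 4% the log2 ratio of Folr2 was -3.55 in place of -1.67 and that of Ccl2 -3.11 in place of -1.63, while that of H2-M3 was smaller in size, -1.30 in place of -2.14.

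S100a9 and Retnla rested on few cells. S100a9, a neutrophil protein, had 0 UMIs in LOY members, a limit of 3.46 CPM (3 counts), and 83.1 CPM in control members, at least 24.0-fold lower in LOY. In the control 54 of 1884 members had a UMI, and 10 of them gave 94.6% of the UMIs. Its log2 ratio was -3.22, and -1.11 with doublets removed and -0.70 at a threshold of 4%. The sum of neutrophil markers given above moved with it, but S100a9 itself gave 855 of the 1783 UMIs of that sum in control members. Of the 4 measured markers 3 were over 1.5-fold lower in LOY members, against 12.8% of all measured genes, while Csf3r had a log2 ratio of -0.22. In MHC II low cells the sum was 305 CPM in the LOY and 258 CPM in the control library. The part of neutrophil transcripts in the result was not tested. Retnla, an alternative activation marker, had 104 UMIs in 10 LOY members, 77 of them in 1 cell, and 8955 UMIs in 201 control members, with 46.2% of these in 10 cells. Its log2 ratio was -2.76 over all members, -1.57 when each cell had equal weight and -0.13 in cells of 2000 to 6000 UMIs, so no stable size is given.

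**Figure D4:**
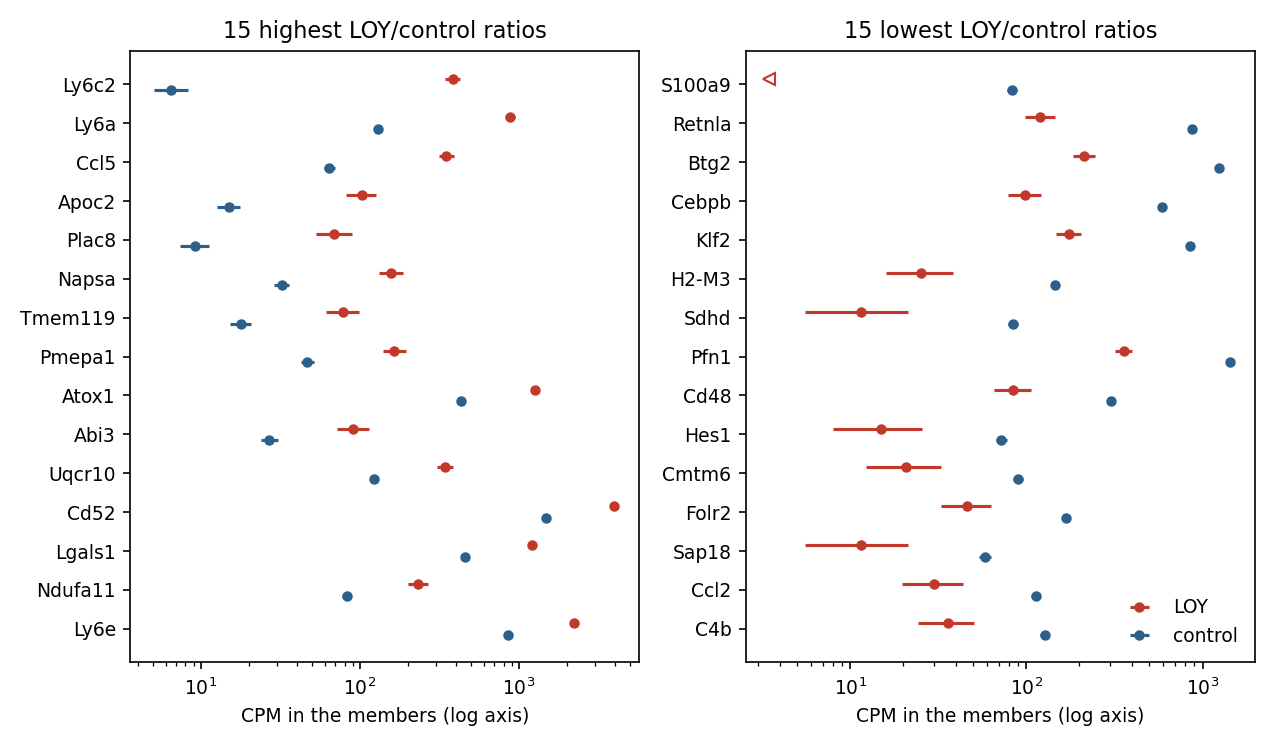
CPM (x axis, log axis) in LOY members (red) and control members (blue) for the 15 genes with the highest (left) and the 15 with the lowest (right) LOY over control ratios, with exact Poisson intervals as bars. Ly6c2 had 382 CPM in LOY against 6.51 CPM in control, and the open triangle marks S100a9 in LOY at 0 UMIs, drawn at the limit of 3.46 CPM.

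The machinery of class II presentation outside the rule was near the median of all genes in members. Of 10 listed genes 8 were measured, 1 was over 1.5-fold higher and 2 lower in LOY members, against a background of 6.44% and 12.8% of all measured genes. The median log2 ratio of the list was 0.01. This median took either sign over the alternatives. The log2 ratio of Cd74 was 0.07, of H2-DMa -0.30, of H2-DMb1 -0.05 and of Ctss, the protease of the invariant chain, 0.31. Ifi30, a lysosomal thiol reductase that unfolds antigens, had 649.7 CPM (597 to 706) in LOY and 306 CPM (295 to 316) in control members. Lgmn, an endosomal protease, had 362 and 744 CPM, and H2-Ob, part of the brake on H2-DM, 5.76 and 17.0 CPM. The same list had a median of -0.50 in MHC II low and -1.06 in Lyve1-positive macrophages, where the medians of all measured genes were -0.14 and -0.01. Of the list, 0 genes were over 1.5-fold higher and 2 of 6 lower in MHC II low cells, with a background of 4.79% and 12.9%, and 0 and 4 of 6 in Lyve1-positive cells, with a background of 6.4% and 8.92%. Members were chosen for high MHC class II in each library, and the other populations were not. Ciita had 146 CPM (122 to 174) in LOY and 157 CPM (150 to 165) in control members, so over all members the difference was within counting error. Its log2 ratio was -0.10, -0.84 with a threshold of 4% and 0.29 among members with 2.5% to 4%. Among members with 2.5% to 4% that of H2-DMb1 was 0.37. The 11 measured of 12 factors of class II transcription had a median of -0.10, equal to that of all genes, with 0 higher and 1, Irf1, lower.

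Among 14 costimulatory and checkpoint genes, 10 were measured, 3 were lower and 0 higher, against a background of 12.8% and 6.44%, and the median was -0.09. The 3 were Cd48, Cd83 (165 and 346 CPM), a maturation marker that stabilises surface class II, and Cd86 (95.6 and 157 CPM), a ligand of CD28. Cd40 had 31.1 and 30.6 CPM, and Vsir, the checkpoint protein VISTA, 370 and 291 CPM. Class I genes were lower. Of 18 listed and measured genes 10 were over 1.5-fold lower and 0 higher, against the same background. Their median was -0.64 and ran from -0.68 to -0.39 over all alternatives. B2m, the light chain of class I, had 1807 CPM in LOY and 2969 CPM in control members, H2-T23 132 and 331 CPM, and H2-D1 1617 and 3721 CPM. H2-D1, H2-K1 and the H2-Q genes share sequence, so their separate levels are uncertain. Psmb10, a proteasome subunit, was at the other end with 283 and 206 CPM. The class I medians were -0.46 in MHC II low and -0.53 in Lyve1-positive cells, so the list was low in all 3 macrophage populations. Genes induced by interferon-gamma, the main inducer of Ciita, had a median of -0.24 over 20 measured of 24. Of these 3 (15%) were over 1.5-fold lower and 0 higher, near the background of 12.8% lower. The highest was Gbp5, with a log2 ratio of 0.26, and the lowest Irf1. Irf1 had 34.6 and 81.7 CPM, Iigp1 28.8 and 63.0 CPM, and Cxcl9, a chemokine for T cells, 48.4 CPM (34.9 to 65.4) and 48.3 CPM (44.1 to 52.7). Cxcl9 UMIs were seen in 1.16% of LOY and 2.92% of control members without thinning, and its log2 ratio was 0.0024, -0.66 with a threshold of 1%, -1.41 with one of 4% and 0.92 among members with 2.5% to 4%.

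Recruited monocyte genes were higher and resident macrophage genes lower in LOY members. Of 17 listed monocyte genes 14 were measured, of which 9 were over 1.5-fold higher and 0 lower, against a background of 6.44% and 12.8%. Their median log2 ratio was 0.98. Beside Ly6c2, Plac8 and Napsa were Chil3, a chitinase-like protein (47.2 and 0.680 CPM), S100a4 (588 and 252 CPM), S100a6 (759 and 370 CPM), Ifitm3 (4056 and 1883 CPM), Ms4a4c (369 and 186 CPM) and the matrix gene Fn1 (62.2 and 35.2 CPM). Of the 9, Ly6c2, Plac8 and Chil3 were under 10 CPM in control members. They were counted as measured, and so as higher, only through their LOY level. Ccr2, Cd44, Itga4, Itgal and Ear2 were the 5 measured genes not among the 9. The median was 0.68 when every listed gene counted whatever its level, 1.74 in cells of 2000 to 6000 UMIs, and 0.80 among members with 2.5% to 4% MHC class II, and -0.04 in MHC II low and 0.52 in Lyve1-positive macrophages. Of 22 resident genes 17 were measured, of which 11 were over 1.5-fold lower and 0 higher, against a background of 12.8% and 6.44%. Their median was -0.76. Cd36, a scavenger receptor, had 41.5 and 143 CPM, Igf1 74.9 and 224 CPM, Gas6 33.4 and 115 CPM, Selenop 715 and 1642 CPM, F13a1 79.5 and 204 CPM and Mrc1 301 and 517 CPM. Stab1 had 104 and 104 CPM, and its log2 ratio was 0.43 with a threshold of 1%, 0.47 with one of 4% and -0.59 among members with 2.5% to 4%. The log2 ratio of Gas6 was -1.53, -0.38 with a threshold of 4% and -2.34 among members with 2.5% to 4%. The median was -1.17 among members with 2.5% to 4% MHC class II and -1.25 when the rule was applied to thinned cells. It was -0.69 in MHC II low and -0.09 in Lyve1-positive macrophages.

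The dissociation and stress list, early genes that respond to tissue digestion, was lower in LOY members. Of 29 listed and measured genes 16 were over 1.5-fold lower and 0 higher, against a background of 12.8% and 6.44%, with a median of -0.77. Beside Btg2, Klf2 and Cebpb, Zfp36 had 214 and 653 CPM, Dusp1 425 and 1178 CPM, Jund 660 and 1634 CPM, and the heat shock genes Hspa1a 377 and 970 CPM and Hspa1b 153 and 378 CPM, which are near-identical. Fos (1319 and 1730 CPM) and Hspa8 (1900 and 1607 CPM) were within 1.5-fold. The list was lower in LOY in MHC II low cells (-1.05) and Lyve1-positive cells (-1.27) too. The handling of each library during digestion cannot be told apart from the group.

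Fibrosis is named in the title of the study. Tgfb1, a ligand that activates fibroblasts, had 261 CPM (229 to 298) in LOY and 204 CPM (195 to 213) in control members, 1.28-fold higher (1.11 to 1.47), but its log2 ratio of 0.35 was -0.17 at a threshold of 4%. The TGF-beta list had a median of 0.11 over 15 measured of 22, with Pmepa1 over 1.5-fold higher and Tgfbr2 (119.8 and 195 CPM) lower. The activator Thbs1 had 11 UMIs, 12.7 CPM, in LOY and 35 UMIs, 3.4 CPM, in control members, and was counted as measured and as higher only through its LOY level. Profibrotic and lipid-associated genes outside the rule had 8 of 21 measured over 1.5-fold higher and 5 lower, against a background of 6.44% and 12.8%. Their median of -0.09 took either sign over the alternatives. Higher were Apoc2, Fabp5 (91.0 and 38.4 CPM), Trem2 (668 and 400.5 CPM), Lgals3 (1727 and 999.8 CPM), Ctsd (608 and 351 CPM), Tyrobp (4020 and 2377 CPM), Fn1 and Mmp14, and lower were Retnla, Igf1, Cd9 (105 and 262 CPM), Lpl (184 and 422 CPM) and Cd63 (271 and 529 CPM). The log2 ratio of Fabp5 was 1.06 and became -0.31 among members with 2.5% to 4% MHC class II. Spp1 and Gpnmb are set by the rule and are not given.

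Of other groups, chemokines and cytokines outside the rule had a median of -0.33 over 19 measured of 24, with Ccl5 the 1 gene higher and 4 lower. The background for these lists in members was 6.44% higher and 12.8% lower. Ccl24 had 9.22 and 34.0 CPM and Cxcl1 2.30 and 11.9 CPM, while Cxcl16, a membrane-bound chemokine, had 854 and 574 CPM and Il1b 479 and 680 CPM. Lectins and paired receptors had a median of -0.32 over 20 measured of 22, with 6 lower and 0 higher. Clec10a had 30.0 and 71.5 CPM and the inhibitory Fc receptor Fcgr2b 214 and 404 CPM, while Clec4a1 had 279.9 and 279 CPM. Of 14 macrophage genes, 1 was over 1.5-fold higher (Trem2) and 4 lower, among them Cd14 (220.0 and 633 CPM), Adgre1 and the receptor of complement C5a, C5ar1 (58.8 and 170 CPM). Lysosomal genes had a median of 0.02 over 25 measured of 26 and efferocytosis genes, which serve the uptake of dying cells, 0.02 over 15 measured of 20. Complement genes outside the rule had a median of -0.24 over 7 measured of 10, with 3 lower.

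**Figure D5:**
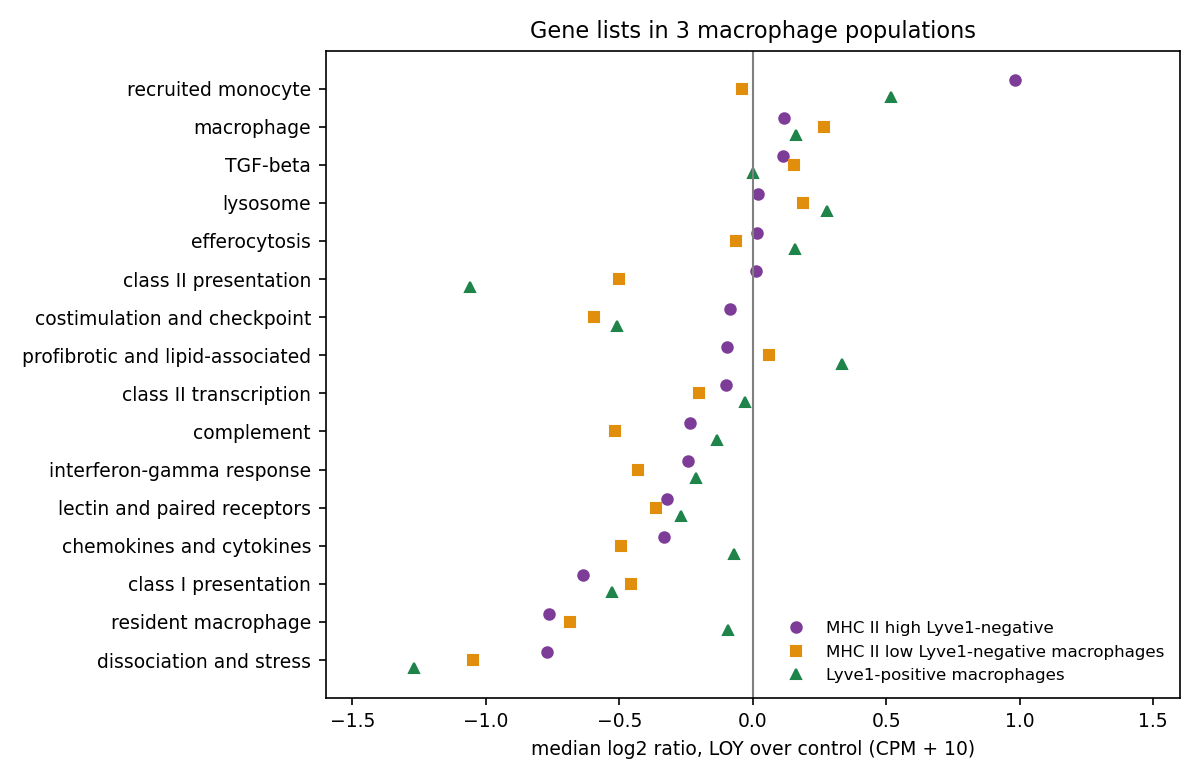
Median log2 ratio of LOY over control (x axis, CPM + 10) over the measured genes of 16 lists in members (circles), MHC II low Lyve1-negative macrophages (squares) and Lyve1-positive macrophages (triangles). Recruited monocyte genes are highest in members at 0.98, and class II presentation genes are at 0.01 in members, -0.50 in MHC II low and -1.06 in Lyve1-positive cells.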

How the data were processed

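Per the labels' protocols, viable CD45+ RFP+ cells were sorted, about 8000 per library were loaded, and libraries were made with the 10x Chromium 3' chemistry. The submitters' processing notes name the build mm10 and the tool Cell Ranger 5.0.0. The deposited values are whole-number UMI counts per gene and barcode, made by the authors with no later normalization. The annotation release and barcode filter are not given in the sources used here. Of 32286 features, 32158 had a position in the reference annotation of the same build.

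Counts were read with Python 3.11.15, numpy 2.4.6, scipy 1.17.1, pandas 2.3.3 and scanpy 1.11.5. UMIs were summed per library and population, a gene was measured at 10 CPM or more in either population, and ratios are log2(CPM + 10). Intervals are exact Poisson, Clopper-Pearson or conditional. Only the conditional intervals, those of ratios, were tested on simulated counts. The sums and the thinning were not tested in this way. The members and the 29 gene lists were chosen with earlier results of these data known, and 1 list symbol was not used.

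Genes were named by size, without rule genes, Y-linked, mitochondrial, ribosomal-protein, haemoglobin, immunoglobulin, T cell receptor and unnamed genes. They were the 15 highest and 15 lowest for LOY over control, the 12 and 12 over MHC II low cells and the 8 and 8 over the other populations, each with at least 50 CPM and 50 UMIs, and the ends of each list. Other list members were named after their values were seen. The 14 planned and 3 added alternatives are given in the closing section. Single values of some listed genes are not reported here.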

Additional observations from a re-analysis of the deposited data

How the results depend on the processing

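No paired analysis was possible because the labels give no replicate numbers and each group is 1 library, so no replicate could be left out either. The alternatives that leave out barcodes found in both libraries or cells with a B cell marker UMI, and the one that keeps members with 2.5% to 4% MHC class II UMIs, were chosen after seeing the data. The cause of a moved value was not tested.

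The share of members was lower in the LOY library under every alternative run. It was 11.2% in LOY and 29.2% in control with a threshold of 1%, and 0.923% and 16.9% with a threshold of 4%, where 50 LOY members remained. The control share was 28.99% on thinned cells, 29.5% with at most 5% mitochondrial UMIs, 36.0% in cells of 2000 to 6000 UMIs and 28.8% without cells with a B cell marker UMI. At a threshold of 4%, 1169 genes were higher and 2303 lower in LOY, and the medians were -0.49 for macrophage, 0.20 for class II presentation, -0.75 for costimulation, 1.43 for recruited monocyte, -1.33 for resident macrophage, 0.21 for profibrotic, 0.23 for lysosome and -1.04 for complement genes. At 1% class II presentation was at -0.15 and profibrotic genes at 0.19. A pseudocount of 1 CPM gave 863 higher and 1665 lower genes, and one of 50 CPM 174 and 207. Among members with 2.5% to 4%, 1580 genes were lower, with medians of 0.28 for class II presentation, -1.17 for resident and -0.47 for profibrotic genes. Recruited monocyte genes were at 1.74 in cells of 2000 to 6000 UMIs, and resident genes at -1.25 on thinned cells.

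Of single genes past 1.5-fold, 6 changed sign or came to 0. At 4% the log2 ratio was -0.55 for Ifi205, -0.047 for Ccl22 and 0.11 for H2-Ob. Fabp5 was at -0.31 among members with 2.5% to 4%, Trbc2 at 0.045 with doublets removed and 0.51 in cells of 2000 to 6000 UMIs, and Cd79b at 0 without cells with a B cell marker UMI. With Lyve1-positive cells taken at 1 UMI, 28 of 32 ratios of named genes against them stayed within counting error and 4 moved. The LOY members' 868080 UMIs limit low genes, since 3 counts are 3.46 CPM.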
